A study of Mus musculus with 9 samples.

Results

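The genes described here encode enzymes that write or erase methyl and acetyl groups on histones, and methyl groups on DNA. They were chosen by name: all protein-coding genes whose symbol starts with Kdm, Kmt, Setd, Hdac, Sirt, Tet or Dnmt followed by a number. The rule found 57 genes of 25059 gene identifiers in the tables, of which 21950 were protein-coding. They comprise 18 lysine demethylases (Kdm), 14 lysine methyltransferases (Kmt2 and Setd), 11 zinc-dependent deacetylases (Hdac), 7 sirtuins (Sirt), 3 TET dioxygenases and 4 DNA methyltransferases (Dnmt). A name is not an activity, since several members act mainly on other substrates, and other enzymes of the same kind carry other names.

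RNA was sequenced from granulosa cells, the somatic cells around the oocyte in the ovarian follicle, of Kunming mice at postnatal day 21. All mice received 5 IU of PMSG, a gonadotropin that drives follicle growth, for 48 h. The 0 h group had no hCG yet. The other groups were taken 1 h and 6 h after 5 IU of hCG, which stands in for the LH surge that sets off ovulation. Each time had 3 libraries, 9 in all. Every group had PMSG. Hour-matched libraries that had no hCG were not analysed here, so time after hCG and time of day cannot be told apart. Whether libraries of the same time derive from different animals or pools is not stated in the labels. The p-values therefore measure only how far these libraries spread, which may be technical. In bulk RNA, fewer cells of a type and less RNA per cell cannot be told apart.

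Methyl groups on histone lysines can mark active or silent chromatin, depending on the residue, and are placed and removed by separate enzyme families. Deacetylases remove acetyl groups, the Hdac enzymes with a zinc ion and the sirtuins with NAD+ as co-substrate. DNA methyltransferases methylate cytosine, and TET enzymes oxidize the methyl group as a step towards its removal. In granulosa cells the LH surge is known to change histone marks at promoters of genes for steroid synthesis within hours.

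Levels are given in FPKM, which divides a gene's fragments by transcript length and by the mapped fragments of the library, summed over the rows of a gene. The tables do not give the depth in reads. Differences were tested on log2(FPKM + 1) with limma across all 14535 genes that reached 1 FPKM in at least 3 libraries, and a gene was called where its p, adjusted by the method of Benjamini and Hochberg, was below 0.05. Changes are in log2 on that scale, which understates the change of low genes, and are given with their SE. Of the 57 genes, 53 passed the filter. The other 4 were Dnmt3l, Hdac9, Kdm4d and the Y-linked Kdm5d, whose value was 0 in all 9 libraries. With no reads to count, the precision rests on the spread of 3 libraries per time. That spread was pooled over the 3 times and drawn towards that of genes of like level. The SE of a gene is therefore the same in all 3 comparisons, even where its spread differed between times.

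Markers were checked against the label. The follicle hormone subunit gene Inha stood at 5413 ± 263 FPKM at 0 h (SD, n = 3), and all 9 granulosa markers of the list were tested. Their sum was 9890 to 10500 FPKM at 0 h, 9800 to 14800 at 1 h and 3770 to 4160 at 6 h, with 8 of 9 called lower at 6 h than at 0 h. Oocyte markers summed to 47.1 to 74.6, 59.9 to 72.3 and 84.3 to 126 FPKM, with 0 of 12 tested called by limma at 1 h (1 at an unadjusted p below 0.05) and 11 called higher at 6 h, both against 0 h. Theca and stroma markers summed to 285 to 406, 608 to 687 and 631 to 829 FPKM, with 1 higher and 4 lower of 10 at 6 h. The steroidogenic gene Star made up the higher sum at 6 h, with 87.8 to 108, 271 to 346 and 523 to 695 FPKM. The other 9 theca and stroma markers summed to 197 to 312 FPKM at 0 h, 262 to 416 at 1 h and 108 to 134 at 6 h. For endothelium, 2 of 6 markers were called higher at 6 h, and their sum stayed at 30.1 FPKM or less. For leukocytes, 1 of 3 tested markers was called lower and the sum lay between 9.72 and 18.9 FPKM. The erythroid list had 2 lower of 4 and a sum of 69.5 to 204 FPKM, and the surface epithelium list had 1 higher and 2 lower of 6 and a sum of 18.5 to 28.2 FPKM. Of 26 genes of S phase and mitosis, 2 were called higher and 13 lower at 6 h than at 0 h, and their sum went from 746 to 894 FPKM to 558 to 672. No marker was at 0 in all libraries. The part of these shifts in the results below was not tested.

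Promoters of 4 genes called at 1 h are shown first, as examples chosen after their values were seen. The windows are the 250 bases before the RefSeq start (GRCm38.p6), and 46 of the 57 genes had an entry. Those without one were Hdac1, Hdac3, Hdac10, Kdm2a, Kdm3b, Kdm4b, Kdm5a, Kdm6b, Kmt2b, Kmt2e and Setd1b. Capitals mark matches on either strand to TGACGTCA (the cyclic AMP response element, CRE), to its core TGACG, to TGACTCA (an AP-1 element) or to CACGTG (an E-box). Sirt1, Hdac5 and Tet2 were called higher at 1 h and Kdm4a lower. The windows lie on the minus strand at chr10:63339036-63339285, chr11:102230173-102230422, chr3:133544391-133544640 and chr4:118180044-118180293. Of the Sirt1 window, 15 bases at most lie in an annotated exon, and the other windows hold 0 exon bases. The Sirt1 and Tet2 windows lie inside the GENCODE spans of these genes, which begin at 63381704 and 133545139 on the minus strand. For both genes the RefSeq start used here thus differs from the GENCODE start. The windows of Kdm5c and Sirt4, also called at 1 h, hold 207 and 216 exon bases and are not printed. Those of Kdm7a, Kmt2c and Kmt2d hold none of the 4 marked motifs and are not printed either. The Hdac5 and Tet2 windows also hold none of them and are printed all the same.
Sirt1: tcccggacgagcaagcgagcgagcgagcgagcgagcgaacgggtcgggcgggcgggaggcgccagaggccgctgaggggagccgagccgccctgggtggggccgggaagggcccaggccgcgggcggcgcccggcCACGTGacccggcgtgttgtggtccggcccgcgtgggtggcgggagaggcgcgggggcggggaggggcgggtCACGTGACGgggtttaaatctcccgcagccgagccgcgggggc
Hdac5: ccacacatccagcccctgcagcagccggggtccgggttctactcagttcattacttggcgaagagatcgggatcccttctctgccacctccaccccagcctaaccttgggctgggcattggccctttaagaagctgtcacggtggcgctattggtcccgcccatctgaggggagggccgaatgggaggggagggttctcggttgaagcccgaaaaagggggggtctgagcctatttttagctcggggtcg
Tet2: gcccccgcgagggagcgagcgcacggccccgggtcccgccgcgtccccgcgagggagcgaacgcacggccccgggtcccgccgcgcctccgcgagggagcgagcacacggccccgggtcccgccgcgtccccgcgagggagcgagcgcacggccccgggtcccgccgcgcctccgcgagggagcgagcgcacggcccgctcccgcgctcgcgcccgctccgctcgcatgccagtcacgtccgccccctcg
Kdm4a: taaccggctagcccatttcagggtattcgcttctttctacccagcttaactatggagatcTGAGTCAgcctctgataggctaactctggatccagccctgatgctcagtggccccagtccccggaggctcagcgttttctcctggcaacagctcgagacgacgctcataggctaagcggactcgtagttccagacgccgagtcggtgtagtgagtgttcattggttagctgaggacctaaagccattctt

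The Sirt1 window held a pair of E-boxes, with first bases at -115 and -43 counted from the RefSeq start. The second of them overlaps a TGACG that begins at -39. A window with 2 or more E-boxes was found for 0.429% of 32851 promoters. The shares that follow are of the 27025 genes with any promoter in the table. An E-box of any number was in 5 of the 46 genes with a promoter, the others being Dnmt3a at -80, Dnmt3l at -44, Kdm4c at -85 and -53 and Kdm6a at -27, against 6.86% of all genes. The full CRE was in 0 of 46, against 1.77% of all genes, and the core TGACG in 11 of 46, against 19.8%. Sirt4 holds that core at -241. The AP-1 letters stood in 3 of 46, against 5.16%: Kdm4a at -190, Kdm5c at -71 and Kdm3a at -175. The GC box GGGCGG, left in lower case above, was in 33 of 46 genes, against 35.4%. It was in 6 of 7 members called higher at 1 h, 0 of 2 called lower and 26 of 33 not called. The genes compared with were not matched to the members in type, level or number of windows. The Sirt1 window held 6 GC boxes, Hdac5 and Tet2 1 each and Kdm4a 0. The 67 member windows had a median GC content of 62.0% and a median CpG observed-to-expected ratio of 0.80, against 52.4% and 0.37 over all promoters. These are matches of letters only.

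At 1 h after hCG most of the tested enzyme genes were not called, as was the case for genes at large. Sirt1, a nuclear NAD+-dependent deacetylase, was at 4.25 times its 0 h mean FPKM, Kdm6b, which removes the repressive Polycomb mark, was 1.99 times, and the class IIa deacetylase gene Hdac5 was 1.55 times. In all, 9 of 53 were called higher and 2 lower. Over all tested genes 15.7% were called, 9.68% higher and 5.98% lower, and for the members 20.8% were called. The median change of the members was 0.04, against -0.01 over all genes tested. By class, the genes called higher and lower were 4 and 1 of 16 lysine demethylases, 2 and 0 of 14 lysine methyltransferases, 1 and 0 of 10 zinc-dependent deacetylases, 1 and 1 of 7 sirtuins, 1 and 0 of 3 TET genes, and 0 and 0 of 3 DNA methyltransferases. The split depends on the scale: the libraries' total FPKM was 491920 to 495500 at 0 h and 527034 to 570986 at 1 h, and scaling every library to the mean sum moved the median of all genes to -0.14 and left 3 members higher and 7 lower. Quantile normalization gave 4 and 4. Single libraries also counted. The number called higher was 2 without replicate 1 or 2 at 0 h, 4 without replicate 1 at 1 h and 3 without replicate 3 at 1 h. It rose without replicate 2 at 1 h, where Hdac1, Kdm1a and Kdm3a gained the call and Kdm7a lost it. The number called lower was 6 without replicate 2 at 1 h and 1 without any of replicates 1, 2 or 3 at 0 h, replicate 1 or 3 at 1 h or replicate 2 at 6 h. Kdm6b and Sirt1 (higher) and Sirt4 (lower) kept their calls in all 17 alternatives tried.

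At 6 h most members were called against 0 h, more of them higher than lower. Against 0 h, 26 of 53 were called higher and 9 lower, which is 66.0% of the members. Over all tested genes 56.6% were called, 28.8% higher and 27.9% lower, so movement as such was common at this time. The median change of the members was 0.16, against 0.00 over all genes. By class, the genes called higher and lower were 11 and 1 of 16 lysine demethylases, 7 and 1 of 14 lysine methyltransferases, 4 and 3 of 10 zinc-dependent deacetylases, 2 and 3 of 7 sirtuins, 2 and 1 of 3 TET genes, and 0 and 0 of 3 DNA methyltransferases. With the libraries scaled to the mean sum, which moved the median of all genes to -0.09, the members' count was 20 higher and 9 lower. The lysine demethylases then had 7 higher, the same number as without replicate 2 at 6 h. The lysine methyltransferases had 4 higher with quantile normalization, without replicate 1 at 0 h or without replicate 2 at 6 h. The number of members called lower was 5 without replicate 3 at 0 h. Between 1 h and 6 h, 20 members were called higher and 6 lower (49.1%), where 53.5% of all genes were called, 26.7% higher and 26.9% lower. The median change there was 0.07, against 0.00. On the mean-sum scale that split was 21 and 3, and with quantile normalization 20 and 5. The number called lower was 2 without replicate 1 or without replicate 2 at 6 h. The comparisons share libraries and are not independent of each other.

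**Figure D1:**
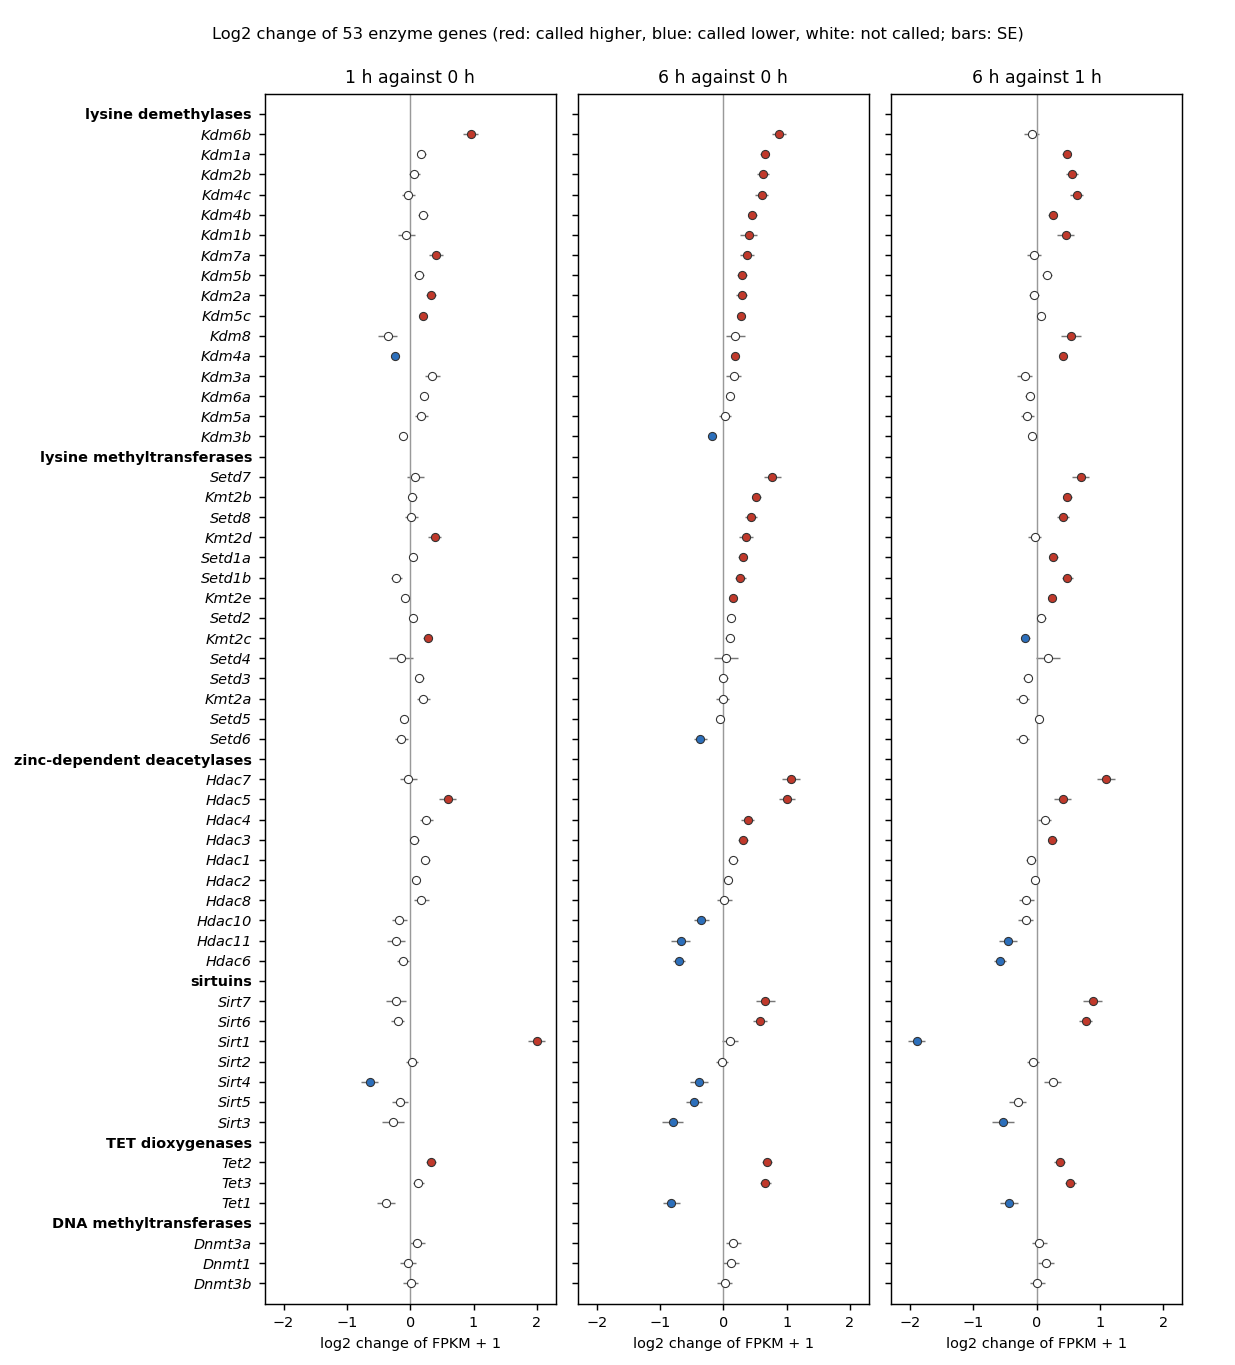
Log2 change (x axis, log2 of FPKM + 1) with its SE for the 53 tested enzyme genes (y axis, by class) in the 3 comparisons. Red points were called higher, blue points lower and white points were not called. Sirt1 stands apart at 1 h (1.997 against 0 h) and lies at -1.90 between 1 h and 6 h, while at 6 h against 0 h Hdac7 (1.07) and Hdac5 (1.00) have the highest values.

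In at least 1 comparison 38 of the 53 members were called (71.7%), and 68.2% of all tested genes were. The 15 that were called in none were Dnmt1, Dnmt3a, Dnmt3b, Hdac1, Hdac2, Hdac8, Kdm3a, Kdm5a, Kdm6a, Kmt2a, Setd2, Setd3, Setd4, Setd5 and Sirt2. Summed over the 57 genes, the level at 0, 1 and 6 h was 1127 ± 25.9, 1283 ± 51.4 and 1359 ± 37.2 FPKM (SD, n = 3). As a share of all FPKM this was 0.223% to 0.235% in the 0 h libraries, 0.228% to 0.235% at 1 h and 0.256% to 0.261% at 6 h. The shares at 0 h and 1 h overlapped, and those at 6 h lay above both. The class sums had unlike courses. The lysine demethylases went from 337.9 ± 8.84 to 402.6 ± 22.0 and 435.5 ± 9.76 FPKM, and the lysine methyltransferases from 387.0 ± 14.6 to 414.2 ± 9.23 and 454.3 ± 10.4. The sirtuin sum was highest at 1 h, with 82.58 ± 0.429, 119.5 ± 2.64 and 91.9 ± 4.32 FPKM, and Sirt1 alone made that peak. The other 6 sirtuins summed to 68.4 ± 0.823, 59.4 ± 8.94 and 76.7 ± 4.63 FPKM, and the median change of the 7 sirtuins at 1 h was -0.20. The TET sum was 49.74 ± 2.92, 53.64 ± 2.59 and 71.01 ± 3.91, and the Hdac sum 193.5 ± 2.34, 214.0 ± 7.49 and 221.3 ± 8.71. The DNA methyltransferase sums overlapped or touched between the times (76.69 ± 1.06, 79.46 ± 11.2 and 85.02 ± 9.02 FPKM). The class sums are not scaled to the libraries' total FPKM. That total was 491920 to 495500 at 0 h, 527034 to 570986 at 1 h and 513434 to 539279 at 6 h. A higher class sum after hCG is therefore not by itself a higher share of all FPKM. All these sums are descriptions and were not tested.

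**Figure D2:**
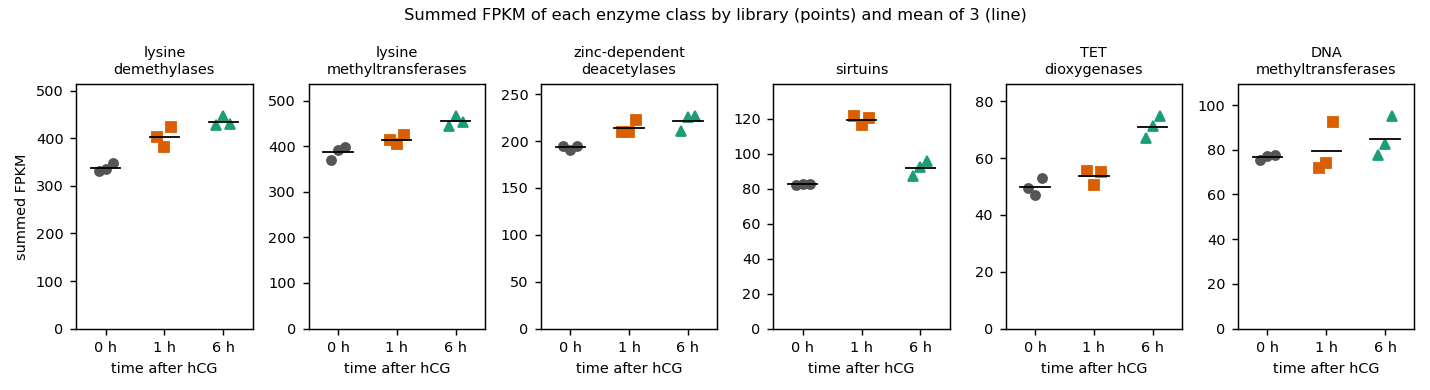
Summed FPKM of each enzyme class (y axis) in every library by time after hCG (x axis, h), with 1 point per library and a line at the mean. The sirtuin sum is highest at 1 h (119.5 FPKM on average, against 82.58 at 0 h and 91.9 at 6 h), a peak made by Sirt1, and the lysine demethylase sum is highest at 6 h (435.5 FPKM).

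The sirtuins held the largest change at 1 h, that of Sirt1. Sirt1 (ENSMUSG00000020063, mm10 chromosome 10, 63319005 to 63381704, minus strand) deacetylates histones and transcription factors. Its level was 13.0, 14.0 and 15.4 FPKM in the 3 libraries at 0 h, 66.3, 46.8 and 67.1 at 1 h, and 15.2, 15.9 and 14.6 at 6 h. All 1 h libraries were far above all others, replicate 2 being the lowest of them, and the 0 h and 6 h values overlapped. The change was 1.997 ± 0.130 at 1 h (limma adjusted p = 9.66e-06) and -1.90 ± 0.13 between 1 h and 6 h (adjusted p = 2.38e-06). Over the 17 alternatives the rise lay between 1.84 and 2.16. An antisense gene, Gm16145, is annotated across Sirt1, and the labels do not say whether strand was kept. The ratio of Sirt1 to Sirt2 was 0.793 to 0.836 at 0 h, 2.48 to 4.14 at 1 h and 0.810 to 0.994 at 6 h. The high ratio was therefore seen at 1 h, and the ranges at 0 h and 6 h overlapped.

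Sirt4, which acts in mitochondria, moved the other way at 1 h (ENSMUSG00000029524, chromosome 5, 115478010 to 115484725, minus strand). It stood at 7.22, 7.89 and 8.42 FPKM at 0 h, 5.04, 5.43 and 3.70 at 1 h, and 5.03, 6.52 and 5.84 at 6 h. Every 0 h library was above every later one, and the 1 h and 6 h values overlapped. Its change was -0.64 ± 0.14 at 1 h (limma adjusted p = 0.0125) and -0.38 ± 0.14 at 6 h against 0 h (adjusted p = 0.0354). The 1 h call held in all 17 alternatives, with an adjusted p of at most 0.0489, and the 6 h call in 11. The other mitochondrial sirtuins were called lower at 6 h only by the comparison with 0 h for Sirt5 (4.01 ± 0.127 FPKM at 0 h, 2.63 ± 0.348 at 6 h) and by both 6 h comparisons for Sirt3. Sirt3, the main mitochondrial protein deacetylase, was at 10.3 ± 1.09, 8.47 ± 1.88 and 5.54 ± 1.30 FPKM (SD, n = 3), a change of -0.80 ± 0.17 from 0 h to 6 h (adjusted p = 0.00272). The opposite-strand genes Ric8 and Psmd13 overlap Sirt3 and ran from 9.62 to 10.1 and 23.1 to 26.6 FPKM at 0 h to 13.4 to 14.7 and 30.1 to 39.5 at 6 h.

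The nuclear sirtuin Sirt6, a chromatin deacetylase with a part in DNA repair, rose late. Its level was 12.5, 11.01 and 11.2 FPKM at 0 h, 9.57, 11.8 and 8.65 at 1 h, and 17.1, 17.2 and 18.7 at 6 h. Sirt7, a nucleolar sirtuin, stood at 18.1, 18.9 and 15.2 FPKM at 0 h, 12.3, 19.6 and 13.2 at 1 h, and 27.1, 27.5 and 29.6 at 6 h. For both genes all 6 h libraries were above all earlier ones, and the 0 h and 1 h values overlapped. From 0 h to 6 h the change was 0.58 ± 0.11 for Sirt6 (limma adjusted p = 0.00137). For Sirt7 it was 0.66 ± 0.15 (adjusted p = 0.00446). From 1 h to 6 h the changes were 0.77 and 0.88, and all 4 calls held in every alternative. Sirt7 overlaps Mafg on the same strand, which was at 21.1 to 25.1 FPKM at 0 h, 34.3 to 39.9 at 1 h and 28.1 to 33.1 at 6 h. Sirt2, a largely cytoplasmic deacetylase, was not called, at 17.3 ± 1.29, 17.7 ± 1.47 and 17.0 ± 1.49 FPKM. Its opposite-strand neighbour Nfkbib went from 9.48 to 12.5 FPKM at 0 h to between 18 and 21.5 at 6 h.

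**Figure D3:**
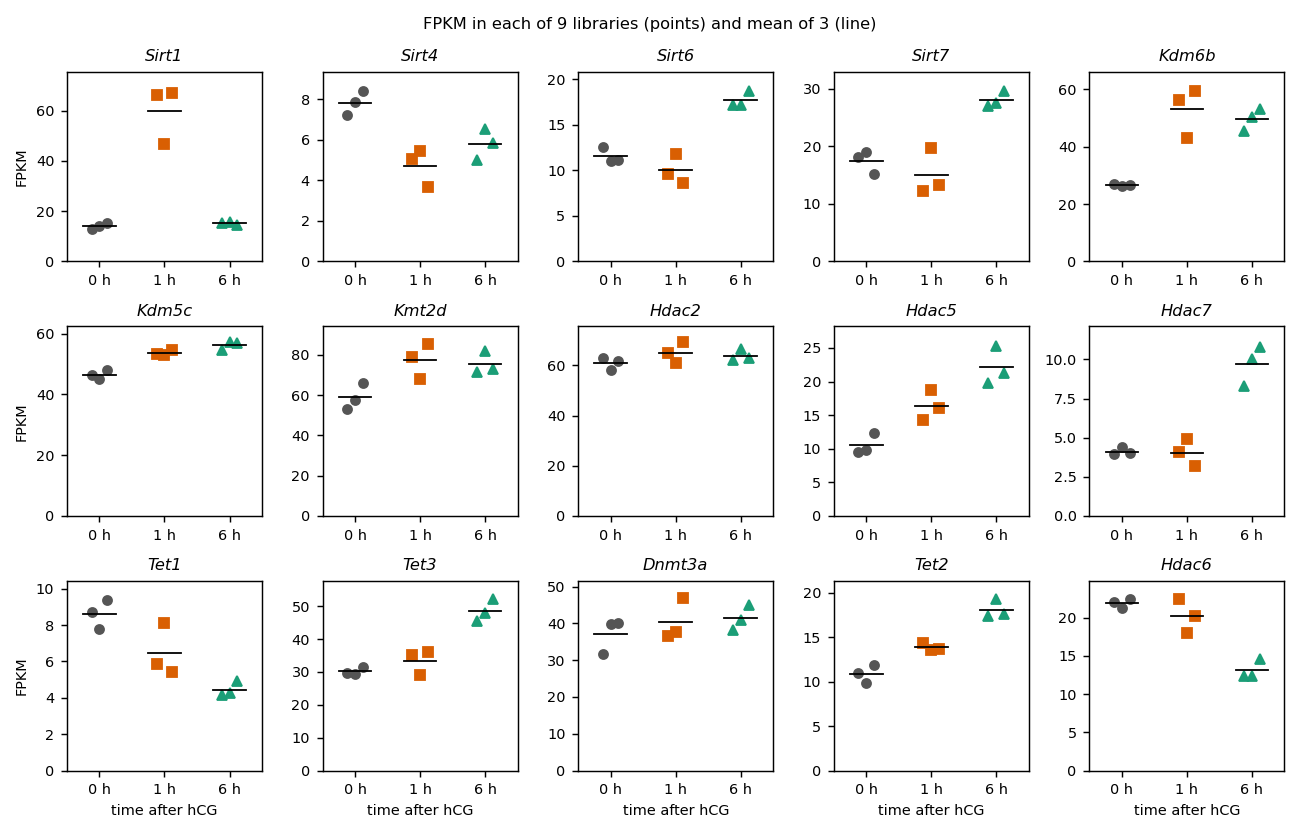
FPKM (y axis, linear from 0, a scale for each gene) of 15 enzyme genes in each of the 9 libraries by time after hCG (x axis, h), with 1 point per library and a line at the mean. Sirt1 lies between 46.8 and 67.1 FPKM at 1 h and at or below 15.9 at 0 h and 6 h, while Kdm6b stays between 43.2 and 59.5 at both times after hCG.

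Among the lysine demethylases, Kdm6b was the most changed at both times. Kdm6b (ENSMUSG00000018476, chromosome 11, 69398508 to 69413675, minus strand) encodes a dioxygenase known to be induced in many cell types by acute signals. Its level was 27.1, 26.3 and 26.6 FPKM at 0 h, 56.3, 43.2 and 59.5 at 1 h, and 45.4, 50.5 and 53.2 at 6 h. Every library after hCG was above every 0 h library, and the 1 h and 6 h values overlapped. The change was 0.95 ± 0.11 at 1 h (limma adjusted p = 0.000409) and 0.87 ± 0.11 at 6 h (adjusted p = 0.000119), both against 0 h. An antisense gene, Kdm6bos, is annotated across it. Kdm6a, the X-linked enzyme for the same mark, was not called (19.6 ± 1.17, 23.0 ± 0.643 and 21.2 ± 0.591 FPKM). The ratio of Kdm6b to Kdm6a was 1.30 to 1.48 at 0 h, 1.89 to 2.66 at 1 h and 2.15 to 2.58 at 6 h.

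Other demethylase genes were called at 1 h. Kdm7a, Kdm2a and Kdm5c were higher and Kdm4a lower, each by less than 0.5 in log2, and each call was lost in several of the 17 alternatives. Kdm7a (12.8 ± 2.02, 17.3 ± 0.741 and 16.8 ± 1.63 FPKM) kept its 1 h call in 7, Kdm2a (38.4 ± 1.34, 48.5 ± 4.49 and 47.1 ± 3.41) in 10, Kdm4a in 7 and Kdm5c in 5. At 6 h against 0 h Kdm7a (0.37 ± 0.11) and Kdm2a (0.29 ± 0.08) were called higher too, in 12 and 16 alternatives. Kdm4a, which acts on methyl marks of both active and silent chromatin, went from 27.2 ± 0.710 FPKM at 0 h to 23.0 ± 0.244 at 1 h and 31.1 ± 1.95 at 6 h. Its change was -0.23 ± 0.06 at 1 h (limma adjusted p = 0.0354) and 0.42 ± 0.06 between 1 h and 6 h (adjusted p = 0.000400), the latter kept in all alternatives. Kdm5c, an X-linked eraser of the active-promoter mark, was the demethylase with the highest mean level. It stood at 46.4, 45.0 and 48.0 FPKM at 0 h, 53.4, 53.03 and 54.5 at 1 h, and 54.7, 57.2 and 57.1 at 6 h. The 3 times did not overlap and the steps were small: 0.20 ± 0.05 at 1 h (adjusted p = 0.0325) and 0.27 ± 0.05 at 6 h (adjusted p = 0.00192). On the mean-sum scale the 1 h step was 0.045 (adjusted p = 0.552) and with quantile normalization 0.033 (adjusted p = 0.725). Its most abundant row alone went from 52.5% of the gene at 0 h to 38.3% at 6 h, and tested alone gave -0.17 at 6 h (adjusted p = 0.170).

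More demethylase genes were called at 6 h than at 1 h, both against 0 h, and so were more genes of any kind. The share called was 31.2% at 1 h and 75.0% at 6 h, beside 15.7% and 56.6% of all tested genes. Between 1 h and 6 h it was 43.8%, beside 53.5%. Called higher at 6 h against both earlier times were Kdm1a, Kdm1b, Kdm2b, Kdm4a, Kdm4b and Kdm4c. The calls against 0 h held in 11 of the 17 alternatives for Kdm4a (0.10 on the mean-sum scale, adjusted p = 0.239, and 0.08 with quantile normalization, adjusted p = 0.289). For Kdm1b the call held in 12 (0.32 on the mean-sum scale, adjusted p = 0.0807). Kdm1a, the flavin-dependent demethylase of the CoREST complex, went from 30.5 ± 0.684 FPKM at 0 h to 34.6 ± 2.80 and 48.4 ± 1.98. Its change from 0 h to 6 h was 0.65 ± 0.07 (limma adjusted p = 4.14e-05), and the opposite-strand gene Luzp1 that overlaps it went from 10.1 to 13.0 FPKM to 33.4 to 39.0. Kdm2b, which recruits a variant Polycomb complex to CpG islands, was at 8.75 ± 0.302, 9.23 ± 0.766 and 14.0 ± 1.17 FPKM. Kdm4c was at 8.81 ± 0.564, 8.65 ± 1.13 and 13.9 ± 1.04, and Kdm4b at 23.2 ± 0.978, 27.0 ± 2.44 and 32.2 ± 1.16. Kdm1b, whose product is best known from growing oocytes, was at 5.29 ± 0.713, 5.04 ± 0.786 and 7.26 ± 0.741 FPKM. The oocyte markers also rose at 6 h, and their part in the Kdm1b change was not tested. Kdm5b (25.5 ± 2.68, 28.1 ± 0.567 and 31.5 ± 1.54) was called higher only against 0 h, by 0.30 ± 0.08. Kdm3b was the only tested demethylase called lower at 6 h, from 21.6 ± 0.690 to 18.9 ± 0.442 FPKM, a change of -0.19 ± 0.06 (adjusted p = 0.0272), kept in 13 alternatives. Its 1 h libraries (19.8 ± 0.669 FPKM) already lay below the 0 h ones. That 1 h step was called on the mean-sum scale (-0.27, limma adjusted p = 0.0118) and with quantile normalization (-0.19, 0.04455). Kdm8, a JmjC protein whose activity as a demethylase is disputed, was near the filter at 1.29 ± 0.188, 0.804 ± 0.297 and 1.61 ± 0.288 FPKM and was called only between 1 h and 6 h. Kdm5a (18.5 ± 0.418, 21.0 ± 1.57 and 18.9 ± 2.63) was not called. Kdm4d lay below the filter at 0.0837 to 1.19 FPKM.

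Kdm3a, a demethylase of a silencing mark, was not called as a gene (22.9 ± 0.511, 29.7 ± 5.31 and 25.7 ± 2.64 FPKM). At 1 h every library was above every 0 h library, with a change of 0.35 (limma adjusted p = 0.0801). Without replicate 2 at 1 h it was called higher at 1 h (0.48, adjusted p = 0.0120) and lower from 1 h to 6 h (-0.32, adjusted p = 0.0263). The rows of Kdm3a changed places. The tables list 4 rows for it without transcript names. Rows were ranked by their mean FPKM over all 9 libraries. The row ranked first held 18.7%, 33.9% and 12.9% of the gene's FPKM at 0 h, 19.8%, 63.8% and 46.5% at 1 h, and 73.9%, 68.3% and 81.7% at 6 h. All 6 h libraries were above all others, and the 1 h libraries were spread between the extremes. The row ranked next went the other way, with means of 63.1%, 32.6% and 6.19%, and at 0 h it held more of the gene than the row ranked first. Tested in place of the gene sum, the first row rose by 1.83 from 0 h to 6 h (limma adjusted p = 0.00249). Sirt2 had a smaller shift of this kind: its second row held below 0.01% at 0 h, 4.41% to 21.0% at 1 h and 7.45% to 17.4% at 6 h. How reads were divided between rows is not given in the sources used here.

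**Figure D4:**
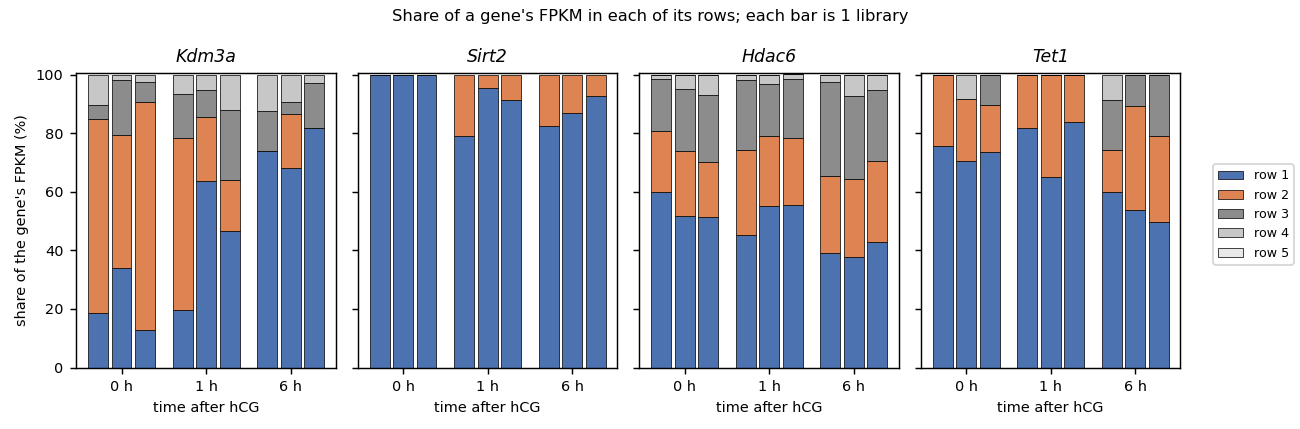
Share of a gene's FPKM (y axis, percent) in each of its rows for Kdm3a, Sirt2, Hdac6 and Tet1, 1 bar per library by time after hCG (x axis, h). Rows are numbered by mean FPKM over all 9 libraries. For Kdm3a row 1 goes from 12.9% to 33.9% at 0 h to 68.3% to 81.7% at 6 h, and for Tet1 from 70.5% to 75.7% to 49.6% to 59.9%.

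Among the lysine methyltransferases, the Kmt2 and Setd1 enzymes methylate histone H3 at active promoters and enhancers. Kmt2d, an enhancer enzyme, was at 52.96, 57.8 and 66.0 FPKM at 0 h, 79.0, 68.0 and 85.5 at 1 h, and 71.7, 81.9 and 73.1 at 6 h. All libraries after hCG were above the 0 h ones, and the 1 h and 6 h values overlapped. Its change was 0.39 ± 0.11 at 1 h (limma adjusted p = 0.0333) and 0.36 ± 0.11 at 6 h (adjusted p = 0.0151), kept in 8 and 14 of the 17 alternatives. Kmt2c, its closest relative, was at 29.7 ± 1.89, 36.3 ± 1.31 and 31.9 ± 1.63 FPKM and was called higher at 1 h (0.28 ± 0.07) and lower from 1 h to 6 h (-0.18 ± 0.07). These calls held in 12 and 5 alternatives. Among the promoter enzyme genes, Kmt2b, Setd1a and Setd1b rose late, unlike Kmt2a. Kmt2b went from 21.6 ± 0.776 and 22.1 ± 0.915 FPKM to 31.4 ± 2.82 at 6 h, Setd1a from 24.3 ± 1.71 and 25 ± 1.31 to 30.2 ± 0.134, and Setd1b from 16.2 ± 1.65 and 13.7 ± 0.966 to 19.6 ± 0.959. The call of Setd1b against 0 h held in 12 alternatives and was lost on the mean-sum scale (0.18, adjusted p = 0.155) and with quantile normalization (0.19, adjusted p = 0.0798). Kmt2b rose by 0.52 ± 0.08 from 0 h to 6 h (adjusted p = 0.000295), and Kmt2a, its relative, was not called (26.7 ± 3.92, 30.8 ± 0.511 and 26.3 ± 1.99 FPKM). Kmt2e, for which no methyltransferase activity has been established, changed by 0.16 ± 0.06 from 0 h to 6 h (adjusted p = 0.0466), kept in 4 alternatives, and by 0.25 ± 0.06 from 1 h to 6 h, kept in all.

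Among the Setd genes, Setd7 had the largest change. It encodes a monomethyltransferase with many non-histone substrates, and went from 8.08 ± 1.22 and 8.63 ± 1.51 FPKM to 14.4 ± 0.482 at 6 h, by 0.77 ± 0.13 from 0 h (limma adjusted p = 0.000662). Setd8, whose product monomethylates histone H4, was at 56.1 ± 8.59, 56.4 ± 1.43 and 75.8 ± 1.03 FPKM and rose by 0.44 ± 0.10 from 0 h to 6 h. Setd6, which methylates non-histone proteins, was the only tested methyltransferase called lower at 6 h against 0 h, from 6.80 ± 0.899 to 5.05 ± 0.402 FPKM. Not called were Setd2, which marks transcribed gene bodies (40.1 ± 2.41, 41.2 ± 1.83 and 43.5 ± 1.11), Setd5 (41.0 ± 2.04, 38.3 ± 0.315 and 39.4 ± 1.10), Setd4 (2.24 ± 0.781, 1.91 ± 0.558 and 2.27 ± 0.193) and Setd3, a methyltransferase of actin (25.3 ± 0.893, 28.0 ± 1.10 and 25.3 ± 1.46). On the mean-sum scale Kmt2e, Setd1b and Setd5 were called lower at 1 h.

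Among the zinc-dependent deacetylases, Hdac7 and Hdac5 had the largest changes in log2(FPKM + 1) at 6 h against 0 h. By ratio of mean FPKM the low gene Hdac11 changed more. It fell to 0.408 times its 0 h mean, beside 2.37 times for Hdac7 and 2.09 times for Hdac5. Hdac7 and Hdac5 are both of class IIa, whose members shuttle between nucleus and cytoplasm and bind MEF2 factors. Hdac5 was at 9.54, 9.80 and 12.3 FPKM at 0 h, 14.3, 18.8 and 16.1 at 1 h, and 19.8, 25.3 and 21.2 at 6 h. The 3 times did not overlap. The change was 0.59 ± 0.13 at 1 h (limma adjusted p = 0.0151) and 1.00 ± 0.13 at 6 h (adjusted p = 0.000139), both against 0 h. The 1 h call was lost without replicate 1 at 0 h (adjusted p = 0.0574) and without replicate 2 at 0 h (0.0542), and the adjusted p lay between 0.0120 and 0.0574 over all alternatives. Hdac7 was at 3.94, 4.38 and 3.99 FPKM at 0 h, 4.06, 4.91 and 3.19 at 1 h, and 8.33, 10.1 and 10.8 at 6 h. The early values overlapped, and all 6 h libraries were well above them. Its change at 6 h was 1.07 ± 0.14 against 0 h (adjusted p = 0.000136) and 1.09 ± 0.14 against 1 h (adjusted p = 0.000138). Slc48a1, which overlaps Hdac7 on the opposite strand, went from between 11.3 and 12 FPKM at 0 h to between 7.5 and 8.2 at 6 h. Hdac4, the third class IIa gene with a measurable level, was at 23.4 ± 0.571, 28.2 ± 2.9 and 31.0 ± 4.30 FPKM and was called at 6 h against 0 h (0.38 ± 0.10). The ratio of Hdac4 to Hdac5 was 1.93 to 2.40 at 0 h and 1.13 to 1.69 at 6 h. Hdac9 was below the filter, at 0.123 to 0.272 FPKM.

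The class I genes moved little. Of these, Hdac1, Hdac2 and Hdac3 encode catalytic subunits of nuclear corepressor complexes. Hdac2 had the highest mean level of the class, at 62.9, 58.3 and 61.6 FPKM at 0 h, 65.0, 60.8 and 69.4 at 1 h, and 62.2, 66.4 and 63.0 at 6 h, and the 3 times overlapped. Hdac1 (33.1 ± 2.36, 39.2 ± 2.61 and 36.9 ± 1.88) and X-linked Hdac8 (6.89 ± 0.818, 7.90 ± 0.557 and 6.995 ± 1.10) were not called. Hdac3, the NCoR-bound deacetylase, rose from 27.7 ± 1.84 to 34.5 ± 1.17 FPKM at 6 h, by 0.31 ± 0.07 (limma adjusted p = 0.00476). The class IIb and IV genes fell. Hdac6, X-linked and known as a tubulin deacetylase, went from 21.9 ± 0.610 and 20.2 ± 2.26 FPKM to 13.1 ± 1.34 at 6 h, a change of -0.70 ± 0.10 from 0 h (adjusted p = 0.000184). The share of its most abundant row fell from 51.3% to 60.1% of the gene at 0 h to 37.9% to 42.7% at 6 h. Hdac10, a polyamine deacetylase, went from 3.00 ± 0.253 to 2.14 ± 0.262 FPKM, a call kept in 12 alternatives, and Hdac11 from 1.78 ± 0.442 to 0.726 ± 0.146. Hdac11 changed by -0.68 ± 0.14 (adjusted p = 0.00268), and its level at 6 h was below 1 FPKM.

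The 3 genes for TET dioxygenases took different courses. Tet1 was at 8.75, 7.77 and 9.39 FPKM at 0 h, 5.85, 8.13 and 5.41 at 1 h, and 4.18, 4.25 and 4.92 at 6 h. The 6 h libraries were below all others, and replicate 2 at 1 h lay within the 0 h range. The change was -0.38 at 1 h, which was not called, and -0.82 ± 0.14 at 6 h against 0 h (limma adjusted p = 0.000704). At 1 h it was called lower on the mean-sum scale (adjusted p = 0.0357) and without replicate 2 at 1 h (0.0123). Tet2 was at 10.9, 9.82 and 11.8 FPKM at 0 h, 14.4, 13.6 and 13.6 at 1 h, and 17.4, 19.3 and 17.6 at 6 h. Its 3 times did not overlap. The change was 0.33 ± 0.08 at 1 h (adjusted p = 0.0267) and 0.69 ± 0.08 at 6 h (adjusted p = 7.92e-05). The 1 h call held in 9 of the 17 alternatives, and from its most abundant row alone Tet2 was not called in any comparison (0.34 at 6 h, adjusted p = 0.297).

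Tet3 was the TET gene with the highest mean level. It was at 29.8, 29.4 and 31.6 FPKM at 0 h, 35.1, 29.0 and 35.9 at 1 h, and 45.3, 47.9 and 52.2 at 6 h. The 6 h libraries were above all others, and the 0 h and 1 h values overlapped. The change was 0.66 ± 0.09 from 0 h to 6 h (limma adjusted p = 0.000177) and 0.53 ± 0.09 from 1 h to 6 h (adjusted p = 0.000820). The ratio of Tet3 to Tet2 was 2.67 to 2.99 at 0 h, 2.14 to 2.64 at 1 h and 2.49 to 2.97 at 6 h. The 1 h libraries lay below the 0 h ones, and the 6 h range overlapped both. The share of the most abundant Tet1 row was 70.5% to 75.7% at 0 h and 49.6% to 59.9% at 6 h.

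None of the 3 tested genes for DNA methyltransferases was called by limma in any comparison, and at an unadjusted p below 0.05 the count was also 0 in each. Dnmt3a, a de novo enzyme, had the highest mean level, at 31.7, 39.8 and 40.2 FPKM at 0 h, 36.7, 37.6 and 47.0 at 1 h, and 38.2, 41.0 and 45.0 at 6 h, and the 3 times overlapped. Its change was 0.16 from 0 h to 6 h. Dnmt1, the maintenance enzyme that acts at replication, was at 37.3 ± 3.87, 36.8 ± 5.54 and 40.9 ± 5.53 FPKM, a change of 0.12 from 0 h to 6 h, while 13 genes of the 26 in the S phase and mitosis list were called lower. Dnmt3b was at 1.87 ± 0.153, 1.89 ± 0.401 and 1.90 ± 0.0369 FPKM. Dnmt3l, a cofactor without catalytic activity known from oocytes, was below the filter at 0.265, 0.179 and 0.338 FPKM at 0 h, 0.185, 0.422 and 0.597 at 1 h, and 0.823, 0.672 and 1.03 at 6 h. All 6 h libraries were above the earlier ones. The oocyte markers moved the same way, and their part in this difference was not tested.

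Other genes of the same machinery, outside the naming rule, were followed as a list of 78, of which 76 were in the tables and 72 were tested. At 1 h 7 were called higher and 1 lower, at 6 h against 0 h 33 and 11, and at 6 h against 1 h 31 and 8. Their median changes were 0.03, 0.20 and 0.12. On the mean-sum scale the 1 h counts became 3 and 15. These are 11.1%, 61.1% and 54.2% of the tested genes of the list, beside 15.7%, 56.6% and 53.5% of all genes. At 1 h the largest called changes at 5 FPKM or more were those of Dot1l, a methyltransferase of the H3 core (32.8 ± 1.45 to 57.9 ± 5.04 FPKM, log2 change 0.80), and of Mbd2, a methyl-CpG reader (28.1 ± 0.787 to 46.4 ± 7.49, 0.69). Prdm2 (0.43) and Rcor1 (0.33) were also higher and Rbbp5, a shared subunit of the Kmt2 complexes, was lower (-0.34). At 6 h Jarid2, a Polycomb cofactor that lacks demethylase activity, went from 26.1 ± 2.40 to 83.2 ± 13.4 FPKM, a change of 1.63 ± 0.13 (limma adjusted p = 5.43e-06). Ep300, a histone acetyltransferase (31.5 ± 1.51 to 58.0 ± 3.65 FPKM, 0.86), and Mbd1 (0.96) were higher than at 0 h. Jmjd1c, a relative of Kdm3a (49.6 ± 2.25 to 29.5 ± 1.21 FPKM, -0.73), and Smyd3 (-0.92) were lower. Between 1 h and 6 h Jarid2 (1.24), the Polycomb methyltransferase gene Ezh1 (0.88) and Ep300 (0.74) were higher, and Jmjd1c (-0.68) and Smyd3 (-0.62) were lower.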

How the data were processed

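Granulosa cell RNA was sequenced in 9 libraries, 3 at each of 0, 1 and 6 h after hCG. The deposited values are FPKM, with 54759 rows in each library's table. The submitters' processing notes name HISAT2 2.0.5 and mm10. What program, gene annotation and filters produced the FPKM is not given in the sources used here. Depth is unknown, so no counting interval is given. Libraries were made with a TruSeq RNA kit, per the labels' protocols, which do not say whether strand was kept.

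Rows were summed per gene identifier, after 27 symbols stored as dates were restored. The 57 genes held 200 rows, and 47 had more than 1. The test was limma 3.58.1 (R 4.3.3) on log2(FPKM + 1), with the prior variance trended, in a single fit of the 3 group means over 9 libraries (6 residual degrees of freedom). Genes entered the test if 3 libraries or more reached 1 FPKM, and p-values were adjusted over all of them by the method of Benjamini and Hochberg. The script was tested on simulated data. Each library's value is given for the 13 genes that changed by 1 or more in log2, were among the 4 largest changes of a comparison or led their class in mean level. Tet2 and Dnmt3l were added after their values were seen. Of the related genes, up to 5 per comparison with at least 5 FPKM are named.

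Alternatives were a pseudocount of 0.1, no filter, scaling to the mean sum, quantile normalization, the most abundant row of a gene (by its mean over the 9 libraries), a replicate block, a fit of the 6 libraries compared, a prior without a trend, and leaving out each library. The genes, the related list and the marker lists (granulosa, oocyte, theca and stroma, endothelium, leukocyte, erythroid, surface epithelium, S phase and mitosis) were chosen with earlier results of these data known. Coordinates are from GENCODE M21 (mm10) and promoters from RefSeq (GRCm38.p6).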

Additional observations from a re-analysis of the deposited data

How the results depend on the processing

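All alternatives named above were run. At 1 h against 0 h, the number of enzyme genes called higher (9) was 3 with FPKM scaled to the mean sum, 4 with quantile normalization and 5 with only the 6 libraries compared, and 2 to 11 when each library was left out in turn. The number called lower (2) was 7 on the mean-sum scale, 4 with quantile normalization, 1 each with the most abundant row alone, the replicate block, only the 6 libraries compared and a prior without a trend, and 1 to 6 when each library was left out. At 6 h against 0 h, 19 to 26 genes were higher and 5 to 9 lower when each library was left out. At 6 h against 1 h these ranges were 16 to 20 and 2 to 7, and 3 genes were lower on the mean-sum scale. With the replicate block the counts of higher and lower genes were 6 and 1 at 1 h, 25 and 8 at 6 h against 0 h, and 20 and 5 at 6 h against 1 h. Deviations of same-numbered libraries correlated at -0.078 to 0.147, and most libraries, though not all, matched their own number best. With 3 libraries per time these weak correlations cannot decide whether replicate numbers pair the samples. Changes of members and named related genes were compared under each alternative, whether called or not. Of these, 2775 stayed on the same side of the threshold, 159 lost the call and 23 gained one. The 2775 include changes that were never called, so they do not give the share of calls kept. Their sign was not compared where neither fit called the gene. A called change reversed in 1 case: Kdm5c at 6 h against 0 h was -0.17 from its most abundant row alone (adjusted p = 0.170). Kdm6b at 6 h against 1 h was called lower without replicate 2 at 1 h (-0.22, adjusted p = 0.0411). The cause of these differences was not tested. Depth in reads is unknown, so what depth limits could not be measured.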
